A study of Mus musculus with 6 samples.

Results

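Trdd1 is the shorter of the pair of D segments that can be built into the δ chain of the mouse γδ T cell receptor. The clonotypes described here are those in which the D segment was assigned to Trdd1 and which joined Trdv1 or Trdv5 to Trdj1. A clonotype is 1 CDR3 nucleotide sequence with 1 V and 1 J assignment, and the choice used the assigned segments and no read number. There were 64 such clonotypes among the 1991 of all 6 samples. They stood beside 1689 clonotypes with Trdd2 and 177 without an assigned D, all with the same V and J segments.

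The data are TCR-seq of the δ chain from sorted γδ T cells of peripheral lymph nodes (pLN). All mice carried the double knock-out of Vγ4 and Vγ6 (strain B6.Cg-Tcrgtm1lku(B6.Vg4-/-Vg6-/-)), in which the remaining γδ T cells use other Vγ chains. The pLN cells of both groups were stimulated with PMA and, per the study's methods, ionomycin, and were sorted with a secretion assay as IL-17-secreting (IL-17pos, 3 samples) or non-secreting (IL-17neg, 3 samples) cells. No antibody to a Vγ chain was part of the sort, the mice were adult per the study's text, with no age given for these samples, and no label says whether the samples, numbered 13-01, 20-01 and 27-01 in both groups, came from separate animals. The p-values below therefore measure the spread between these samples, which may be technical. Each sample held between 95803 and 142169 reads, and the Trdd1 clonotypes took 2059 to 5832 of them.

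A δ chain gene is assembled in the thymus when the RAG recombinase joins a V, a D and a J segment. In the δ locus both D segments can enter 1 chain, one after the other. Exonucleases trim the ends, opened hairpins can leave short palindromic P nucleotides, and terminal deoxynucleotidyl transferase (TdT) adds N nucleotides that no segment encodes. The resulting stretch, the CDR3, is the most variable part of the receptor. TdT is scarce in the early fetal thymus, so joins without N nucleotides are a known mark of fetal γδ T cells.

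The germline segments are shown because every measurement below compares a clonotype with them. On chromosome 14 of GRCm38, RefSeq places Trdd1 at chr14:54113468-54113476, Trdd2 at chr14:54122226-54122241 and Trdj1 at chr14:54123138-54123188, all on the plus strand. Trdv1 lies at chr14:53881612-53882217 on the plus strand and Trdv5 at chr14:54148662-54149201 on the minus strand, downstream of Trdj1 and in inverse orientation. The lines give the whole D segments and the part of Trdv1, Trdv5 and Trdj1 that lies within the CDR3, all 5′ to 3′.
Trdd1: ATGGCATAT
Trdd2: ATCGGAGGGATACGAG
Trdv1: TGTGGAGGGAAAG
Trdv5: TGTGCCTCGGGGTAT
Trdj1: CTACCGACAAACTCGTCTTT
Trdd1 has 9 bases and Trdd2 has 16. Between them lie 8749 bases, and 896 bases separate Trdd2 from Trdj1.

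The clonotypes below are shown because they had the most reads of the Trdd1 clonotypes of a sample, were found in more samples than others, kept the whole of Trdd1 or held the longest remnant of Trdd2. Each line gives the CDR3 nucleotide sequence. The first run of capitals is the longest exact run of germline Trdd1 that overlaps the assigned D piece, and a second run of capitals, where present, is a run of Trdd2 with at least 5 bases between that piece and J, drawn on into the bases assigned to J where it continues there.
Clonotype 1: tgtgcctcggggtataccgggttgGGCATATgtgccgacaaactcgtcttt
Clonotype 2: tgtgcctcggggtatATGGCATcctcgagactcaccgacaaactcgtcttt
Clonotype 3: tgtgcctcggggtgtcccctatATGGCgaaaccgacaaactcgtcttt
Clonotype 4: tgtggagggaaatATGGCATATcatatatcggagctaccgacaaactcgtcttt
Clonotype 5: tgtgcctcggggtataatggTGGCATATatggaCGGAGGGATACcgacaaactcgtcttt
Clonotype 6: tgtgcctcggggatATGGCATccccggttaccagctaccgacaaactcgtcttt
Clonotype 7: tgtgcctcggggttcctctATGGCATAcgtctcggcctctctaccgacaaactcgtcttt
Clonotype 8: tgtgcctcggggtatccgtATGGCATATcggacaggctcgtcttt
Clonotype 9: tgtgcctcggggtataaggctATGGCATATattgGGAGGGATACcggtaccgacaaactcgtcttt
Clonotype 10: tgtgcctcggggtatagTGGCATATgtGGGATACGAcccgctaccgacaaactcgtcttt
Clonotype 11: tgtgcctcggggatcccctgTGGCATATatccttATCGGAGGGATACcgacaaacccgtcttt
Clonotype 4 used Trdv1 and the other 10 used Trdv5. No clonotype with 0 insertions on both sides of Trdd1 existed to be shown.

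No Trdd1 clonotype was large in more than 1 sample. Clonotype 1 had 3886 reads in IL-17neg 20-01, 2 in IL-17pos 20-01 and 3 in IL-17pos 27-01, and 0 in the other 3 samples. Its share of the Trdv1 and Trdv5 reads of IL-17neg 20-01 was 2.92% (95% Wilson interval 2.84 to 3.02), and it was the clonotype of rank 12 in that sample. Clonotype 2 had 2934 reads in IL-17pos 13-01, 1 in IL-17neg 13-01 and 3 in IL-17neg 20-01. With 2.97% of the reads (2.87 to 3.08) it ranked 2 in IL-17pos 13-01, the highest rank any of the shown clonotypes reached.

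Clonotype 3 led the Trdd1 clonotypes of IL-17pos 20-01 with 1267 reads (1.32%, rank 20) and had 1 read in IL-17neg 13-01. Clonotype 5 led those of IL-17neg 13-01 with 1107 reads (1.03%, rank 35) and had 1 read in IL-17pos 27-01. Clonotype 6 led those of IL-17pos 27-01 with 1022 reads (0.719%, rank 15) and had 1 read in IL-17neg 20-01. None of these leading sequences was large in a second sample. Clonotype 7 led those of IL-17neg 27-01 with 988 reads (0.862%, rank 5) and was in no other sample. Clonotype 8 followed in the same sample with 936 reads (0.817%, rank 6). Clonotype 4 had 1149 reads in IL-17pos 13-01 (1.16%) and 1 read in IL-17neg 13-01. Clonotype 9 had 593 reads in IL-17pos 27-01 (0.417%) and 2 in IL-17neg 20-01, clonotype 10 had 418 reads in IL-17neg 27-01 (0.365%), and clonotype 11 was a single read of IL-17neg 27-01.

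Of the 64 clonotypes, 56 were in 1 sample, 6 in 2 samples and 2 in 3 samples. All 8 shared ones linked an IL-17pos with an IL-17neg sample, as did 155 of 188 shared Trdd2 clonotypes and 20 of 24 without an assigned D. Each of the 8 had at least 102 reads in 1 sample and no more than 3 reads in any other. When at least 10 reads were required in a sample, 38 Trdd1 clonotypes remained, 21 in IL-17neg and 17 in IL-17pos samples, and 0 of the 38 were in more than 1 sample, which allows a share of up to 7.89%. Sharing among Trdd2 clonotypes was low in the same way. Of 1689 Trdd2 clonotypes, 188 (11.1%) were in several samples against 8 of 64 (12.5%, Wilson interval 6.47 to 22.8) with Trdd1, and at 10 reads 8 of 1044 (0.766%) remained shared.

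The low read numbers formed a class of their own. Of the 74 entries (a clonotype in a sample), 36 had fewer than 10 reads, and these 36 entries held 48 of the 22554 Trdd1 reads. In 10 of the 36, the same sequence had 10 or more reads in another sample. Another 24 differed by at most 3 substitutions from a clonotype with 10 or more reads in the same sample, and 2 entries of 1 read each did neither. Whether index exchange, carry-over or sequencing errors produced these entries was not tested. Values are therefore given over all clonotypes, each counted once, and for the main counts also for those with at least 10 reads.

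Few reads were assigned to Trdd1 in either group. The IL-17neg samples 13-01, 20-01 and 27-01 held 7, 7 and 29 Trdd1 clonotypes, and the IL-17pos samples held 5, 14 and 12. With at least 10 reads there were 2, 2 and 17 against 2, 6 and 9. Their share of the Trdv1 and Trdv5 reads was 1.91%, 3.23% and 5.09% in IL-17neg and 4.14%, 3.11% and 2.33% in IL-17pos. The lowest and the highest share were thus both in IL-17neg samples. The means of 3.41% ± 1.59 and 3.19% ± 0.910 (SD, n = 3 each) differed by -0.219 percentage points (exact two-sided permutation p = 0.9, adjusted p = 0.9). With 1 sample left out at a time, this difference ran from -0.967 (without IL-17neg 13-01) to 0.620 (without IL-17neg 27-01). Its sign thus depended on single samples. An exact permutation test of 3 against 3 samples cannot give less than p = 0.1. Wilson intervals at the 95% level were narrow, from 1.83 to 2.0% in IL-17neg 13-01 to 4.96 to 5.22% in IL-17neg 27-01. They cover counting error alone, since the counts are raw reads and the study's methods mention no molecular identifiers.

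Counted as clonotypes, Trdd1 made up 3.63%, 3.20% and 4.15% in IL-17neg and 3.01%, 5.07% and 1.85% in IL-17pos, a difference of -0.345 percentage points (exact permutation p = 0.8, adjusted p = 0.9). How the Trdd1 reads were spread over clonotypes varied more. The leading clonotype took 90.6% of the Trdd1 reads of IL-17neg 20-01, 71.8% of IL-17pos 13-01 and 53.8% of IL-17neg 13-01. It took 16.9% in IL-17neg 27-01, 42.5% in IL-17pos 20-01 and 30.9% in IL-17pos 27-01. Averages weighted by reads therefore rest on 1 or a few sequences in some samples.

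Most clonotypes assigned to Trdd1 kept most of the segment. No assigned piece had fewer than 5 bases, so the length kept is in part set by the assignment itself. The assigned D piece had a median of 8 bases (quartiles 6 and 9, range 5 to 13) over the 64 clonotypes and also 8 over the 38 with at least 10 reads. In 15 clonotypes the piece was longer than the 9 bases of germline Trdd1, as in clonotype 4 with 13, and in 17 it had fewer than 7. Germline runs were counted as well. An exact run of at least 5 germline bases overlapped the piece in 58 of 64 clonotypes, and 16 held the whole of Trdd1, among them clonotypes 4, 8 and 9. Among the 38 with at least 10 reads, 37 had such a run and 13 were whole. The core ggcat was inside the run in 50 of 64. The run reached the last base of Trdd1 in 31 clonotypes and its first base in 34.

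The 6 clonotypes without such a run show that the assignment can rest on little sequence. Of these, 1 had more than 10 reads, and it was singled out after its values were seen. It had 617 reads in IL-17neg 27-01 (0.538%, rank 30), and its assigned piece, in capitals, shared at most 2 consecutive bases with Trdd1.
Clonotype with the weakest match: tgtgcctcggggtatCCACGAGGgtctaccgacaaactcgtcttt
It kept the whole CDR3 part of Trdv5 in front of the piece, and its D-J gap had 2 bases.

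The first base of Trdd1 was often left outside the assigned piece. In 48 clonotypes the germline run began at base 1 or 2. Of these 48, 34 had the genome's base at position 1, 12 had G (A1G) and 2 had C (A1C). Position 1 is the first base of Trdd1. These letters need not be substitutions, since a Trdd1 trimmed to base 2 has a V or inserted base there. The base lay inside the assigned piece in 10 of the 12 with A1G, in 0 of the 2 with A1C and in 3 of the 34 with the genome's base. In 33 clonotypes the germline run began upstream of the assigned border, so the deposited borders count germline bases as insertions or as V there. Whether the reference used for the assignment differed from the genome at this base was not tested.

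The bases next to untrimmed Trdd1 ends were described because a palindromic P nucleotide beside ATGG would be T and one beside ATAT would be A. Of the 34 clonotypes that reached base 1, 20 had T in front of it and 14 of them AT. In 4 of the 20 the T had been assigned to V. In clonotype 2 it is the last base of germline Trdv5, which ends in tat, so P and V bases cannot be told apart there. In the others, clonotype 6 among them, the T stands where germline Trdv5 has A and does not match it. The other neighbours were C in 8, G in 4 and A in 2. Of the 31 clonotypes that reached the last base, 13 went on with A and 9 of those with AT. The next base was G in 10 of the others, C in 8 and T in 0. Trdd2 begins with AT, so the start of a Trdd2 remnant and P nucleotides cannot be told apart by these letters.

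Trdd1 was read in each of the 3 frames. Among the 58 clonotypes with a germline run, 28 were in the frame that reads an intact segment as tryptophan (TGG) and histidine. Of these 28, 24 had the TGG codon, and in the other 4, trimmed to base 3 of Trdd1, the codon was GGG (glycine). Another 18 were in the frame of glycine (GGC) and isoleucine, and 12 in that of methionine (ATG), alanine and tyrosine. Among the 37 with at least 10 reads the frames had 17 clonotypes, 15 of them with TGG, 12 and 8. The 38 clonotypes with at least 10 reads encoded 37 distinct CDR3 proteins. The pair that shared a protein was from IL-17neg 27-01, had 52 and 36 reads, and differed by G9A, with positions counted from the 5′ end of the CDR3. The capitals mark that base.
Clonotype with 52 reads: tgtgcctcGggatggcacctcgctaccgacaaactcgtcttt
Clonotype with 36 reads: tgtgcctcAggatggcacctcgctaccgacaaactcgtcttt
Their CDR3 had 14 amino acids, against a median of 17 over all 64 clonotypes (range 12 to 22).

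Insertions were placed unevenly around Trdd1. Over the 64 clonotypes the median number of bases between V and Trdd1 was 3 (quartiles 1 and 5, range 0 to 10), and between Trdd1 and J it was 9 (quartiles 4 and 11, range 0 to 19). The D-J gap was longer than the V-D gap in 51 clonotypes, shorter in 12 and equal in 1, and with at least 10 reads longer in 32 and shorter in 6. The V-D gap was 0 in 11 clonotypes, clonotypes 2, 6 and 10 among them, and the D-J gap in 1. None of the 64 had 0 insertions on both sides, which allows a share of up to 4.69%, and the count was also 0 with borders taken from the germline run. A remnant of Trdd2 between Trdd1 and J counts as insertions here, so a clonotype that holds one cannot reach 0 on both sides.

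Part of the D-J gap was Trdd2. A run of at least 5 bases of Trdd2 was found in the D-J gap of 21 of 64 clonotypes (32.8%) and in the V-D gap of 0 of 64. The comparison has a limit, because 45 D-J gaps but 22 V-D gaps were long enough to hold such a run. A count of 0 in 22 allows a share of up to 13.6%. Requiring 4 bases gave 33 D-J against 2 V-D gaps, and requiring 6 gave 17 against 0. Among the 38 with at least 10 reads, 15 D-J gaps (39.5%) and 0 V-D gaps held a run of 5.

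The runs covered the middle of Trdd2 most often. Bases 7 and 8 of Trdd2 were inside the run in 18 of the 21 clonotypes, base 1 in 6 and base 16 in 0. A run of 5 or more bases can cover a middle base in more ways than an end base, and runs were ended at the J border, so this order is in part built into the count. Clonotypes 9 and 11 had the longest run within the gap, 10 bases, and clonotype 10 had 9. Clonotype 11 is 1 of the entries of 1 read that lie within 2 substitutions of a clonotype with 10 or more reads in the same sample, and it had 0 reads in the R2 tables. Runs could go on into bases that had been assigned to J. Counted in that way 28 of 64 clonotypes held at least 5 bases of Trdd2, and the run of clonotype 5 grew from 8 to 11 bases and that of clonotype 11 from 10 to 13. In clonotype 4 most of the stretch atcggag, germline Trdd2 in front of an intact Trdj1 start, had been assigned to J. Its D-J gap of 1 base therefore did not count as a remnant, while its run into J had 7 bases.

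Clonotypes with a Trdd2 remnant had longer D-J gaps (median 11 against 5 bases) and longer CDR3s (median 19 against 17 amino acids) than those without. The gap must hold at least 5 bases to contain a run, so this difference is in part fixed by the count itself. Trdv5 was used in 14 of the 21 with a remnant and in 29 of the 43 without.

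The share of Trdd1 clonotypes with a Trdd2 remnant was 28.6%, 28.6% and 24.1% in IL-17neg 13-01, 20-01 and 27-01. In IL-17pos it was 0% (0 of 5 clonotypes, which allows up to 60.0%), 35.7% and 66.7%. The IL-17pos samples thus lay on both sides of the IL-17neg samples, with a difference of 7.03 percentage points (exact permutation p = 0.7, adjusted p = 0.9). With at least 10 reads the shares were 50.0%, 0% and 29.4% in IL-17neg and 0%, 50.0% and 66.7% in IL-17pos, a difference of 12.4. The value for all clonotypes of IL-17neg 20-01 rests on 2 sequences with 2 and 1 reads there, which had 593 and 102 reads in IL-17pos 27-01. The difference moved with single samples and with the way of counting. It was 0.514 with at least 2 reads, 1.90 weighted by reads, 13.97 in the R2 tables and 16.96 with runs that go on into J. It was -9.24 without IL-17pos 27-01, 24.1 without IL-17pos 13-01, and 28.7 for runs of at least 4 bases, where the groups did not overlap (exact permutation p = 0.1, the smallest possible).

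The other features of Trdd1 clonotypes overlapped between the groups as well, with each clonotype of the R1 tables counted once. The mean number of D bases kept was 7.43, 6.43 and 8.41 in IL-17neg and 7.20, 7.64 and 8.83 in IL-17pos (difference 0.468, exact permutation p = 0.5, and 1.09 with at least 10 reads). V-D insertions averaged 2, 3.43 and 3.03 in IL-17neg and 3.40, 4.93 and 3.42 in IL-17pos (difference 1.09, exact permutation p = 0.3). A single IL-17pos value, that of 20-01, lay above the IL-17neg samples, and with at least 10 reads the difference turned to -0.439. D-J insertions averaged 6.29, 9.86 and 7.72 in IL-17neg and 7.60, 7.86 and 10 in IL-17pos (difference 0.530, exact permutation p = 0.6, and 2.42 in the R2 tables). The mean CDR3 length was 16.7, 17.6 and 17.2 amino acids in IL-17neg and 17.4, 17.2 and 19.2 in IL-17pos (difference 0.774, exact permutation p = 0.4, and 0.154 without IL-17pos 27-01). IL-17pos 27-01 had the longest CDR3s and the widest D-J gaps. In the R2 tables the groups did not overlap in bases kept (difference 1.59) or in CDR3 length (2.17), both with the smallest exact permutation p of 0.1. Trdv5 was used by 71.4%, 85.7% and 58.6% of Trdd1 clonotypes in IL-17neg and by 60.0%, 78.6% and 83.3% in IL-17pos (difference 2.05 percentage points, exact permutation p = 0.9). All 8 comparisons of the groups had an adjusted p of 0.9.

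Weighted by reads, D-J insertions were the 1 feature in which the groups did not overlap. They averaged 7.31, 4.03 and 8.14 bases in IL-17neg and 8.19, 8.23 and 10.9 in IL-17pos, a difference of 2.60 with the smallest p the design allows (exact permutation p = 0.1). The low value of IL-17neg 20-01 rests on clonotype 1, which has 3 D-J insertions and 90.6% of the Trdd1 reads there.

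Trdd1 clonotypes used Trdv5 more often than Trdd2 clonotypes of the same samples. Trdv5 was the V segment of 43 of the 64 Trdd1 clonotypes (67.2%). Per sample the share averaged 72.9% ± 11.6 (SD, n = 6) with Trdd1 and 49.3% ± 9.74 with Trdd2. It was higher with Trdd1 in 6 of 6 samples, by 23.7 percentage points ± 10.2 (exact sign-flip permutation p = 0.031, the smallest that 6 samples allow, adjusted p = 0.0391 over 5 comparisons). The difference was smallest in IL-17neg 27-01, with 58.6% against 48.3%, and largest in IL-17pos 27-01, with 83.3% against 49.4%. It was 25.1 points with at least 10 reads and 30.9 weighted by reads, in both cases with the same exact p. With at least 10 reads, however, IL-17neg 13-01, IL-17neg 20-01 and IL-17pos 13-01 held 2 Trdd1 clonotypes each. IL-17neg 20-01 then had 50.0% against 48.9%. Over all clonotypes, 5 of 7 in each of these IL-17neg samples and 3 of 5 in IL-17pos 13-01 had fewer than 10 reads. Since 4 Trdd1 clonotypes were in both IL-17neg 20-01 and IL-17pos 27-01, the 6 differences were not fully separate. Trdv1 and Trdv5 clonotypes with Trdd1 were alike in their medians. These were 9 and 8 bases kept, 3 and 3 V-D insertions, 9 and 9 D-J insertions, and 18 and 17 amino acids.

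Joins without any insertion were found with Trdd2 and not with Trdd1. Among Trdd2 clonotypes with Trdv1 or Trdv5, 9.94%, 9.04% and 6.17% in IL-17neg and 4.83%, 5.46% and 6.96% in IL-17pos had 0 insertions on both sides. The mean was 7.07% ± 2.03 (SD, n = 6) against 0% in every sample for Trdd1. A test of this difference carries no weight, because with 5 to 7 Trdd1 clonotypes in 3 of the samples a share near that of Trdd2 would most often also give 0 there. The number rests on the 0 of 64 given above. With at least 10 reads it was 0 of 38, which allows a share of up to 7.89%, beside a mean of 7.43% with Trdd2. At that setting a share as high as that of Trdd2 is thus not excluded. The 21 of 64 clonotypes with a Trdd2 remnant in the D-J gap could not count as such joins, since the remnant is counted as insertions.

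The gaps on the sides of the D segment differed in opposite directions from those of Trdd2 clonotypes. V-D insertions averaged 3.37 ± 0.941 (SD, n = 6) with Trdd1 and 5.33 ± 0.395 with Trdd2, and were fewer with Trdd1 in 6 of 6 samples, by -1.97 ± 0.742 (exact sign-flip permutation p = 0.031, adjusted p = 0.0391). D-J insertions averaged 8.22 ± 1.44 with Trdd1 and 2.05 ± 0.167 with Trdd2, and were more in 6 of 6 samples, by 6.17 ± 1.53 (exact sign-flip permutation p = 0.031, adjusted p = 0.0391). Trdd2 lies between Trdd1 and Trdj1 in the locus, so what is left of it widens the D-J gap of Trdd1 clonotypes by construction. This p-value therefore does not measure a difference in N nucleotides alone. The CDR3 had 17.5 ± 0.847 amino acids with Trdd1 and 17.8 ± 0.295 with Trdd2 (difference -0.249 ± 0.930, exact sign-flip permutation p = 0.53125). It was shorter with Trdd1 in 5 of 6 samples and longer, by 1.55, in IL-17pos 27-01. Without that sample the difference was -0.609 (exact sign-flip permutation p = 0.0625, the smallest that 5 samples allow).

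Each clonotype carries a single D assignment, so a remnant of the other D segment is counted as insertions. Leaving out Trdd1 clonotypes with a Trdd2 run of at least 5 in the D-J gap and Trdd2 clonotypes with a Trdd1 run of at least 5 in the V-D gap, a setting chosen after the data were seen, changed the V-D result. The difference in V-D insertions was then 0.183 (exact sign-flip permutation p = 0.75). This setting also removes long gaps, since a gap under 5 bases cannot hold such a run. The difference in D-J insertions was 4.58 and that in the Trdv5 share 31.0 percentage points, both with exact p = 0.031. Joins with a Trdd2 run of under 5 bases in the gap stayed in, so the 4.58 can still include Trdd2 bases. Weighted by reads, the V-D difference was -1.33 (exact sign-flip permutation p = 0.219), with IL-17neg 20-01 turned to more insertions with Trdd1 (7.53 against 4.83), and in the R2 tables it was -1.38 (exact sign-flip permutation p = 0.0938).

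The Trdd1 assignment therefore covers a part of the joins that hold Trdd1 sequence. Of 1689 Trdd2 clonotypes, 366 (21.7%) had a run of at least 5 Trdd1 bases in the V-D gap, and 195 (11.5%) had at least 6. In the D-J gap, on the side where Trdd1 does not lie in the locus, the number was 0 for both lengths. Here 755 V-D gaps and 223 D-J gaps had at least 5 bases, and 0 of 223 allows a share of up to 1.35%. The share with at least 6 bases was 8.19%, 14.4% and 11.8% in IL-17neg and 14.5%, 13.9% and 7.30% in IL-17pos, so the groups overlapped. Clonotypes with at least 5 bases took 17.2% of all Trdv1 and Trdv5 reads, with 11.8% to 23.6% in single samples, and those with at least 6 took 8.03%, with 5.53% to 9.84%, beside the 1.91% to 5.09% assigned to Trdd1.

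The largest 3 of these joins with at least 7 bases of Trdd1 in the V-D gap are shown because they carry both D segments in the order of the locus. The first capitals mark the Trdd1 run within the V-D gap and the second the piece assigned to Trdd2. In the last line they touch.
Trdd1-Trdd2 join of IL-17neg 20-01: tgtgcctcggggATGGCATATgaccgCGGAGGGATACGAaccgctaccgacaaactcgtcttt
Trdd1-Trdd2 join of IL-17pos 20-01: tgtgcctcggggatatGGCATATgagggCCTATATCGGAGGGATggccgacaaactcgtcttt
Trdd1-Trdd2 join of IL-17neg 13-01: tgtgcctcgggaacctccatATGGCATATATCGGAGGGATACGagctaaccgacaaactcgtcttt
All 3 used Trdv5. The first had 1961 reads in IL-17neg 20-01 and 1 in IL-17neg 13-01, the second 1330 in IL-17pos 20-01 and 1 in IL-17neg 20-01, and the last 1319 in IL-17neg 13-01 and none elsewhere. Like the leading clonotypes assigned to Trdd1, each was large in 1 sample. Clonotypes 5, 9, 10 and 11 hold the same order of segments under the other assignment.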

How the data were processed

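The δ-chain CDR3 of mRNA from 6 sorted samples was amplified by RACE PCR and sequenced as read pairs. The authors assigned segments with MiXCR and the IMGT nomenclature and exported VDJtools tables, 12 in all (R1 and R2). The submitters' processing notes list mm10, and versions and settings are not given in the sources used here. Each deposited count is a raw number of reads, and the deposited fraction relates it to the sum of its table. The deposited segment borders count from 0 and include both ends.

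R1 tables were used and R2 as an alternative. Kept bases and insertions were taken from the borders. Segments were read from the RefSeq annotation of GRCm38, the build that the name mm10 also denotes. IL-17pos was set against IL-17neg by a two-sided exact permutation test (20 assignments, difference in means), and Trdd1 with Trdd2 within samples by an exact two-sided sign-flip permutation test over 64 assignments, with Benjamini-Hochberg adjustment over 8 and 5 comparisons. The threshold was 0.05. No test across clonotypes was fitted, since nearly all were in 1 sample. Both tests were tested on simulated data. Alternatives were at least 2 or 10 reads, weighting by reads, other run lengths, other borders and leaving out samples. Borders from the germline run, runs that go on into J and leaving out joins with both D segments were chosen after seeing the data.

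Named clonotypes were the Trdd1 clonotype with most reads in each sample, the 3 in most samples, the 3 largest with the whole of Trdd1, the largest without insertions (none), and the 3 with the longest Trdd2 run in the D-J gap. Members, lists and tests were chosen with earlier results of these data known. Scripts used Python 3.11.15, NumPy 2.4.6, pandas 2.3.3 and SciPy 1.17.1. Wilson intervals (95%) and the limit of a count of 0 (3 counts of the total) cover counting error alone. The water controls of the PCR and the numbers of sorted cells were not analysed here.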

Additional observations from a re-analysis of the deposited data

Results flagged for a closer look

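The difference in mean CDR3 length between Trdd1 and Trdd2 clonotypes was 1.55 amino acids in IL-17pos 27-01 and below 0 in the other 5 samples, which set this sample apart by Dixon's criterion among the 6 differences. Such a criterion marks about 1 in 20 groups by chance. The Trdd1 clonotypes of this sample also had the largest share of Trdd2 remnants in the D-J gap (66.7%) and the widest D-J gaps (mean 10 bases). Their part in the difference was not tested.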

How the results depend on the processing

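None of the 8 comparisons of IL-17pos with IL-17neg could pass the threshold of 0.05, so their directions are described without a call. The R2 tables held 5, 3 and 15 Trdd1 clonotypes in IL-17neg 13-01, 20-01 and 27-01, and 3, 7 and 9 in IL-17pos. Of the R1 Trdd1 clonotypes with at least 10 reads, they held 12 of 17 in IL-17neg 27-01 and 5 of 6 in IL-17pos 20-01. In the other samples they held all of them. In the R2 tables the difference in the Trdd1 share of reads was 0.277 percentage points and that in V-D insertions -0.532. With Trdd2 clonotypes that hold at least 6 Trdd1 bases in the V-D gap added, the differences were 1.78 points for reads and 0.104 for clonotypes. Weighted by reads, bases kept differed by -0.0726 and V-D insertions by -1.48. V-D insertions differed by -0.439 with at least 10 reads, and D-J insertions by -0.557 with at least 2. The difference in the share of clonotypes was -1.21 with at least 2 reads and -0.714 with at least 10, and that in Trdv5 use 0.384 and 4.47 points. The smallest p of 0.1 (exact permutation) was reached by bases kept (1.59) and CDR3 length (2.17) in the R2 tables, by D-J insertions weighted by reads, and by Trdd2 remnants of at least 4 bases (28.7 points). Leaving out 1 sample at a time gave ranges of -0.967 to 0.620 points for reads, -1.23 to 0.385 for clonotypes, -0.0291 to 0.963 bases kept, 0.587 (without IL-17pos 20-01) to 1.40 V-D insertions, 0.154 (without IL-17pos 27-01) to 1.13 amino acids of CDR3 length, -0.305 to 1.48 D-J insertions, -9.24 to 24.1 points for Trdd2 remnants and -4.60 to 9.03 for Trdv5 use. Each cause was not tested.

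Against Trdd2, V-D insertions lost the call in the R2 tables (-1.38, exact permutation p = 0.0938), weighted by reads (-1.33) and without joins that hold both D segments (0.183). The CDR3 difference, never called, was 0.0651 with at least 2 reads and 0.163 weighted by reads. With 5 samples left no exact p can fall below 0.0625, so no value could pass, with ranges of -2.18 to -1.76 V-D insertions, 5.78 to 6.55 D-J insertions, -0.609 to -0.125 amino acids of CDR3 length, 21.6 to 26.3 points of Trdv5 use and -7.51 to -6.49 points of joins without insertions.

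The numbers 13-01, 20-01 and 27-01 recur in both groups. Deviations from the group means over 183 clonotypes found in both groups correlated at 0.229, -0.0167 and 0.0459 for equal numbers, so the numbers were not taken as pairs. The numbers of Trdv1 and Trdv5 clonotypes in IL-17neg and IL-17pos were 193 and 166 for 13-01, 219 and 276 for 20-01, and 699 and 648 for 27-01. Whether equal numbers mark a shared animal or day was not tested. If they do, the 6 within-sample differences between Trdd1 and Trdd2 are not independent. A replicate block leaves each difference as it was (-0.219 points for reads, for example), with exact permutation p-values from 0.25 to 1.

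Fewer than 10 Trdd1 clonotypes in 3 of the 6 samples limit every per-sample share.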
